A study of Mus musculus with 9 samples.

Results

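The genes described here are 9 that bind, make, degrade or sense retinoic acid in mouse skin keratinocytes: Crabp1, Crabp2, Dhrs9, Aldh1a1, Aldh1a2, Aldh1a3, Cyp26b1, Rarb and Rarg. They were chosen as a list of symbols by their roles, with earlier results of these data known. All 9 matched 1 identifier each among the 55357 Ensembl gene identifiers of the deposited table. Their levels were compared across 3 sorted populations, Touchdome, IFE (interfollicular epidermis) and HF (hair follicle), with 3 RNA-seq libraries each. Of the 9 genes, 6 had enough counts to be tested, and Aldh1a2, Aldh1a3 and Rarb did not pass the filter on low counts.

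Every library came from back skin epidermis of TNC-CREER; tdTomato mice on a C57BL/6 background at postnatal day 60. All groups therefore carried the inducible Cre under the Tnc gene and the reporter. All had received tamoxifen at 100 µg per g body weight on postnatal days 51 and 52. The sort separated the groups: each was EPCAM-positive and α6-integrin-positive, Touchdome cells were positive for SCA1 and for tdTomato, IFE cells had SCA1 only, and HF cells had neither. Touch domes are epidermal patches where Merkel cells meet sensory nerve endings, and the Touchdome group holds cells in which Tnc was active around the time of tamoxifen. The labels do not say whether libraries came from separate or pooled animals, and p-values therefore rest on the spread among these libraries alone, part of which may be technical. In bulk RNA from sorted cells, fewer cells of a type and less RNA per cell cannot be told apart.

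Retinoic acid is made from vitamin A in cells that need it. Dehydrogenases of the RDH and DHRS kind oxidise retinol to retinal, aldehyde dehydrogenases of the ALDH1A family oxidise retinal irreversibly to retinoic acid, and the cytoplasmic proteins CRABP1 and CRABP2 carry the product to degrading enzymes or to the nucleus. There it binds the receptors RARα, RARβ and RARγ, which act as pairs with RXR receptors on DNA, and CYP26 enzymes remove it. In skin, retinoids are known to affect keratinocyte differentiation, sebaceous glands and the hair cycle, and RARγ is known as the main epidermal RAR.

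Total expected counts were 9295059 to 28249763 per library, and a count of 0 allowed at most 0.114 to 0.316 CPM (counts scaled to a common library size), a limit set at 3 counts that covers counting error only. Of the gate genes, Tnc lay at 200.4 to 288 CPM in Touchdome, 40.6 to 56.9 CPM in HF, which was sorted without tdTomato, and 1.13 to 7.16 CPM in IFE. Ly6a, which encodes SCA1, lay at 0.422 to 1.90 CPM in HF against at least 104 CPM in both other groups. Of the 7 bulge and outer root sheath markers listed, 7 were higher in HF than in IFE, and all 6 basal keratinocyte markers were measured in every group. Of the 6 Merkel cell markers listed, Atoh1 and Sox2 were at 0 counts throughout, and Isl1 had 1 count, in IFE replicate 1. In Touchdome replicates 1, 2 and 3, Krt8 had 112, 9 and 12 counts, Krt18 31, 3 and 4, and Krt20 6, 3 and 0. Most of these counts lay in replicate 1. In IFE, Krt8 had 2, 0 and 2 counts and Krt18 3, 2 and 1, and in HF they had 43, 16 and 39 and 0, 2 and 4. Krt20 had 0 counts in both. Touchdome replicate 3 stood apart from the other Touchdome libraries, at -2.86 on the first principal component against -37.6 and -40.7. It was the Touchdome library closest to HF (89.2 to 98.7), though still nearer to IFE (-75.4 to -57.5).

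The promoters of the receptor gene Rarb and of Cyp26a1, a second degrading enzyme outside the 9, are shown because retinoic acid is known to switch both genes on through a response element next to the start site. That element is a direct repeat of a core hexamer with a spacer of 5 bases, named DR5. The hexamer was searched as AGGTCA and also in the form AGTTCA, in the form GGGTCA and in the form GGTTCA. The sequences run 5′ to 3′ along the gene over the 250 bases before the start site, from RefSeq on build GRCm38.p6, and capitals mark every core hexamer on either strand. Cyp26b1 and Crabp1, the members with the greatest fold changes here, follow for comparison.
Rarb (chr14:16575477-16575726, minus strand): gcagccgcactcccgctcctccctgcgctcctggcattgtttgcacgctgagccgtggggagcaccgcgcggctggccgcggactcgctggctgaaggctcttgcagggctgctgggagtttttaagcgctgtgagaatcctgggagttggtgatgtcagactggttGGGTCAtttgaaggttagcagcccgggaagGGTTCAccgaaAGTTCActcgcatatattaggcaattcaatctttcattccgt
Cyp26a1 (chr19:37697558-37697807, plus strand): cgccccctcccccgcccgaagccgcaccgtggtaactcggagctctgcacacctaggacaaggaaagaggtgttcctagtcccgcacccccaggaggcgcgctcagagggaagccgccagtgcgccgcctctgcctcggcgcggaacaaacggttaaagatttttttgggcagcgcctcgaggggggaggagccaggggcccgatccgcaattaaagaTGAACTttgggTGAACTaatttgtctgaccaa
Cyp26b1 (chr6:84593811-84594060, minus strand): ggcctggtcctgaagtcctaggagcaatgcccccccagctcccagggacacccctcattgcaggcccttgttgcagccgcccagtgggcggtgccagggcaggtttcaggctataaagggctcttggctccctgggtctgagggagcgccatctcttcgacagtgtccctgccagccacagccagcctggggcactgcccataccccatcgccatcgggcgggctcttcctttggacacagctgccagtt
Crabp1 (chr9:54764498-54764747, plus strand): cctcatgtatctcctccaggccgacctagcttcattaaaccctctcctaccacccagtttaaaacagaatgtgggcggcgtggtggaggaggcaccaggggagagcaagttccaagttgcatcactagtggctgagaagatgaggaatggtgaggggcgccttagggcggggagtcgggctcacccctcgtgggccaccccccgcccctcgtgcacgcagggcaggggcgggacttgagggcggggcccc

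A DR5 stood 53 to 37 bases before the Rarb start site as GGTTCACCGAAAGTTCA, and on the opposite strand 32 to 16 bases before that of Cyp26a1 as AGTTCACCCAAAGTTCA. Both strands were searched, and 29 of 32851 promoters of this length (0.0883%) held such a DR5, while 38.6% held a core hexamer. The repeats with spacers of 1 or 2 bases (DR1 and DR2) were in 0.164% and 0.174% of them, and a hexamer could count toward more than 1 repeat. Of the 7 members with a promoter in the table, 1 held any of the 3 repeats, in Rarb, and no hexamer lay in the windows shown for Cyp26b1 and Crabp1. A match is a string of letters and not a measured site, and its absence from a window says nothing of the receptor. No binding was measured here.

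The retinoic acid binding proteins were highest in HF. Crabp1 (ENSMUSG00000032291) had 61, 39 and 41 counts in HF replicates 1, 2 and 3, which is 2.79, 4.11 and 2.69 CPM. In IFE it had 4, 4 and 3 counts (0.210, 0.281 and 0.114 CPM), and in Touchdome 11, 0 and 12 counts (0.703, 0 and 0.996 CPM). All 3 HF libraries lay above all 6 others, and Touchdome replicate 2, with no count, lay at or below the IFE libraries while the other Touchdome libraries lay above them. Crabp1 passed the filter on low counts only through HF, and did not pass it with only Touchdome and IFE in the fit. Its calls against HF are therefore descriptions. HF exceeded IFE in Crabp1 by 3.98 ± 0.91 on the log2 scale (estimate ± SE from edgeR, adjusted p = 0.00449, over all genes tested). It was lower in Touchdome than in HF by -2.45 ± 0.83 (adjusted p = 0.0486), a call that ended when a single library was left out, be it Touchdome 1, Touchdome 2, IFE 1, IFE 3 or any HF library (adjusted p from 0.0571 to 0.143 in edgeR). Touchdome against IFE gave 1.53 ± 0.92 (adjusted p = 0.647), with a 95% interval from -0.47 to 3.53, so a difference in either direction could not be shown at this depth.

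Crabp2 (ENSMUSG00000004885), the paralog known to deliver retinoic acid to nuclear receptors, was more abundant per length. Its TPM, the deposited length-scaled abundance, was 62.4 ± 17.97 in HF, 28.8 ± 9.14 in Touchdome and 13.6 ± 4.55 in IFE (SD, n = 3), against 9.5 ± 2.46, 1.59 ± 1.45 and 0.510 ± 0.197 for Crabp1. Crabp2 therefore made up 84.2% to 89.7% of the summed TPM of the pair in HF libraries, 92.2% to 100% in Touchdome and 96.1% to 96.6% in IFE. In CPM, Crabp2 stood at 29.7, 29.7 and 17.6 in HF replicates 1, 2 and 3, at 15.3, 7.87 and 14.1 in Touchdome and at 7.21, 8.44 and 4.05 in IFE. HF did not overlap either other group, and Touchdome overlapped IFE through its replicate 2. HF exceeded IFE by 1.98 ± 0.33 (log2, adjusted p = 0.000668), and Touchdome was below HF by -1.04 ± 0.32 (adjusted p = 0.0338, edgeR). The second call ended without Touchdome replicates 2 or 3 or HF replicates 1 or 2 (adjusted p = 0.105, 0.0538, 0.113 and 0.108). For Touchdome against IFE the log2 fold change was 0.94 ± 0.33 (adjusted p = 0.282, 95% interval 0.22 to 1.66), which did not pass over all genes tested.

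**Figure D1:**
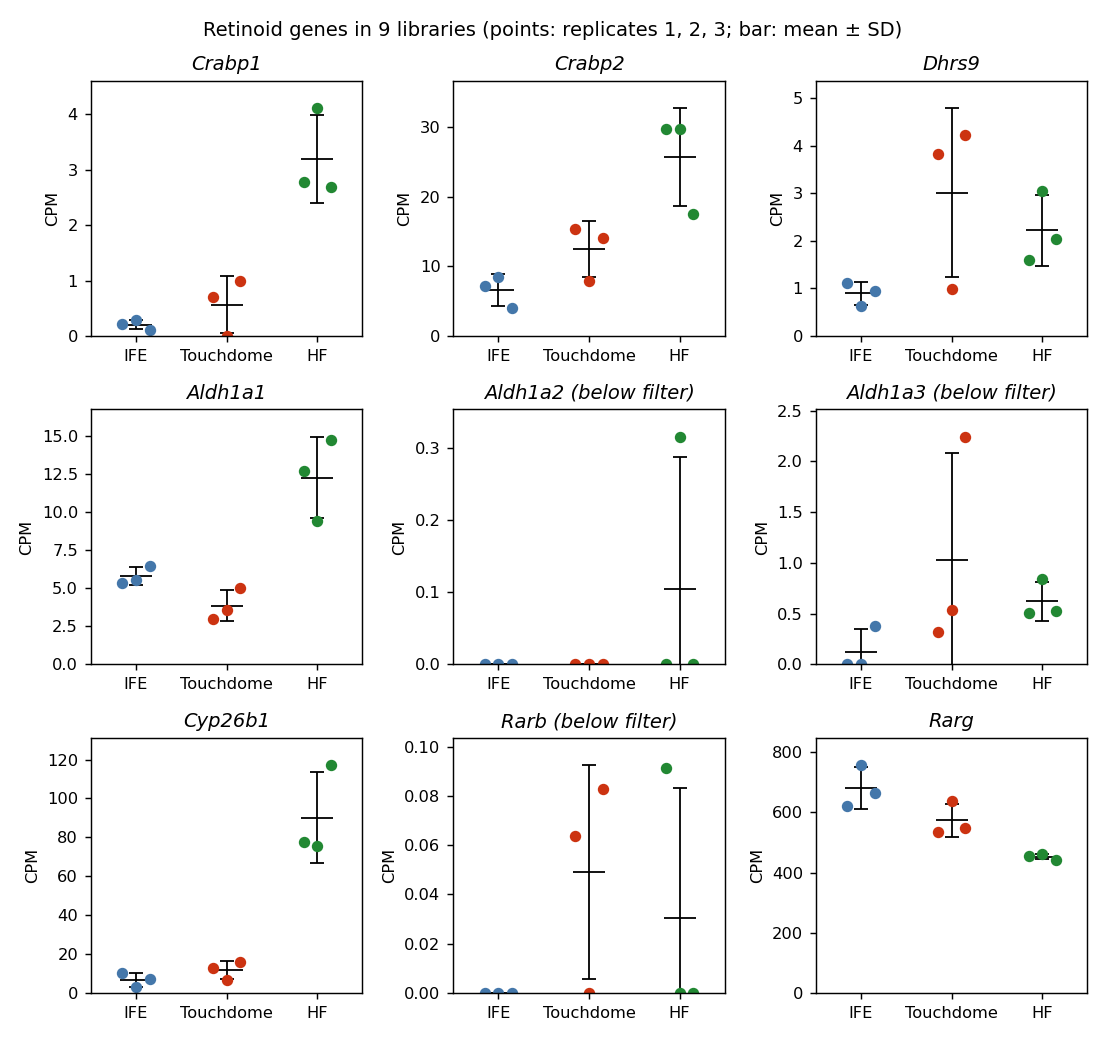
Level of each of the 9 retinoid genes in CPM (vertical axes, linear from 0) in IFE, Touchdome and HF libraries, with points for replicates 1, 2 and 3 from left to right and a bar for the mean ± SD, where an SD below 0 is not drawn. Crabp1, Crabp2, Aldh1a1 and Cyp26b1 are highest in HF, Rarg is lowest there, and Rarb and Aldh1a2 stay at or below 0.316 CPM in every library.

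Of the synthesis enzymes, Aldh1a1 was the ALDH1A gene with most transcript in every library. Aldh1a1 (ENSMUSG00000053279), which oxidises retinal to retinoic acid, stood at 12.7, 9.38 and 14.7 CPM in HF, 5.37, 5.56 and 6.47 CPM in IFE and 3.0, 3.58 and 4.98 CPM in Touchdome. In CPM the 3 groups did not overlap, and Touchdome was the lowest of them. HF exceeded IFE by 1.08 ± 0.27 (log2, adjusted p = 0.00737), and Touchdome was below HF by -1.67 ± 0.28 (adjusted p = 0.000699, edgeR). Touchdome against IFE gave -0.60 ± 0.28 (adjusted p = 0.471, 95% interval -1.19 to 0.00). Of all genes tested, 14.6% had Touchdome and IFE libraries that did not overlap, 6.27% with Touchdome lower and 8.32% with Touchdome higher. In TPM these groups overlapped, at 2.55, 3.29 and 5.95 in Touchdome against 4.48, 4.17 and 5.62 in IFE. Its share of the summed ALDH1A TPM was 89.3% to 97.3% in HF, 96.9% to 100% in IFE and 77.2% to 94.1% in Touchdome.

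The other ALDH1A genes were near the limit of detection. Aldh1a3 (ENSMUSG00000015134) had 5, 6 and 27 counts in Touchdome, 0, 0 and 10 in IFE and 11, 8 and 8 in HF, that is 0.320, 0.536 and 2.24 CPM, 0, 0 and 0.379 CPM, and 0.503, 0.843 and 0.524 CPM. Touchdome replicate 3 was the highest library and replicate 1 overlapped IFE, while HF lay above IFE in every library. Aldh1a3 was below the filter, and in a fit without a filter its log2 fold change for Touchdome against IFE was 2.79 ± 1.19 (adjusted p = 0.459, edgeR). Its TPM did not follow its counts closely, with 0.160 TPM for the 5 counts of Touchdome replicate 1 and 0.970 TPM for the 6 counts of replicate 2, so its share of the family is uncertain. Aldh1a2 (ENSMUSG00000013584), the main retinoic acid synthase of the embryo, had 3 counts in HF replicate 2 and 0 in the other 8 libraries. Over a group, 0 counts allow up to 0.0503 CPM in IFE and 0.0772 CPM in Touchdome.

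Dhrs9 (ENSMUSG00000027068), a short-chain dehydrogenase that can oxidise retinol, was the 1 tested member without a call in any comparison. It stood at 3.84, 0.983 and 4.23 CPM in Touchdome, 1.10, 0.633 and 0.946 CPM in IFE and 1.60, 3.06 and 2.03 CPM in HF. Touchdome replicates 1 and 3 were the highest of the 9 libraries and replicate 2 lay within the IFE range. The log2 fold change for Touchdome against IFE was 1.74 ± 0.58 (adjusted p = 0.249, 95% interval 0.48 to 3.01), and 2.15 ± 0.50 without Touchdome replicate 2 (adjusted p = 0.0641, edgeR). HF exceeded IFE in every library, at 1.28 ± 0.58 (adjusted p = 0.113). Of all genes tested, 47.7% had HF and IFE libraries that did not overlap, 24.6% with HF higher and 23.1% with HF lower. Per length Dhrs9 was low, at 1.2 ± 0.700 TPM in Touchdome, 0.323 ± 0.106 TPM in IFE and 0.933 ± 0.311 TPM in HF (SD, n = 3).

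Cyp26b1 was higher in HF than in both other populations. Cyp26b1 (ENSMUSG00000063415), which hydroxylates retinoic acid and so removes it, stood at 77.8, 75.3 and 117 CPM in HF replicates 1, 2 and 3. It stood at 12.6, 6.79 and 16.0 CPM in Touchdome and at 10.4, 3.24 and 6.93 CPM in IFE. The HF libraries were far above all others, and Touchdome and IFE overlapped. HF exceeded IFE by 3.70 ± 0.44 on the log2 scale (13.0-fold, adjusted p = 0.000278), and Touchdome was below HF by -2.93 ± 0.43 (7.60-fold, adjusted p = 0.00130, edgeR). Touchdome against IFE gave 0.77 ± 0.43 (adjusted p = 0.627, 95% interval -0.22 to 1.76). Replicate 2 was the lowest library in Touchdome and in IFE. The related genes Cyp26a1 and Cyp26c1 had 0 counts in all 9 libraries, so Cyp26b1 accounted for 100% of the counted CYP26 transcripts in each.

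Rarg was the most abundant of the 9 genes and ran the other way. Rarg (ENSMUSG00000001288), which encodes RARγ, stood at 620.3, 756 and 664 CPM in IFE, 535, 636 and 549 CPM in Touchdome and 455, 462 and 443 CPM in HF. HF lay below both other groups without overlap, while Touchdome and IFE overlapped. HF was lower than IFE by -0.59 ± 0.12 on the log2 scale (1.5-fold, adjusted p = 0.00224, edgeR). Touchdome against HF gave 0.34 ± 0.12 (adjusted p = 0.0573 in edgeR) and did not pass. Of all genes tested, 43.4% had libraries of these groups that did not overlap, 21.2% with Touchdome higher and 22.2% with Touchdome lower. Rarg passed there with DESeq2 (adjusted p = 0.0208), with only the 2 groups in the fit (0.0299 in edgeR), and without IFE replicates 1 or 2 (0.0476 and 0.0204). Touchdome against IFE gave -0.25 ± 0.12 (adjusted p = 0.506, 95% interval -0.51 to 0.01).

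Within the RAR family, Rarg took 87.8% to 92.2% of the summed TPM in every library, and Rara nearly all of the rest. Rarb (ENSMUSG00000017491), whose promoter carries the DR5 printed above, had 1, 0 and 1 counts in Touchdome, 0 in IFE and 2, 0 and 0 in HF. These are at most 0.0914 CPM, below the limit that a count of 0 allows in each library. Rarb exons also overlap exons of Top2b and Gm48162 on the opposite strand in GENCODE, and the strand setting of the counting is not given in the sources used here, so even these counts may belong to another gene. Both genes with a DR5 next to the start site, Rarb and Cyp26a1, were thus not detected above counting error in any of the 3 populations, and no difference between groups could be measured for either. By mean TPM in IFE, Rarg (370.2) came first, then Crabp2 (13.6), Aldh1a1 (4.76), Cyp26b1 (2.5), Crabp1 (0.510), Dhrs9 (0.323) and Aldh1a3 (0.0600). Of these neighbours, Crabp1 and Dhrs9 lay within 1 SD of each other. In Touchdome the order was Rarg (354), Crabp2 (28.8), Cyp26b1 (4.57), Aldh1a1 (3.93), Crabp1 (1.59), Dhrs9 (1.2) and Aldh1a3 (0.803), where Cyp26b1 and Aldh1a1 lay within 1 SD of each other, as did Crabp1, Dhrs9 and Aldh1a3. In HF, Cyp26b1 at 36.5 ± 9.02 TPM stood above Aldh1a1 at 13.7 ± 0.878 TPM and Crabp1 at 9.5 ± 2.46 TPM, and behind Rarg (287 ± 4.59) and Crabp2 (SD, n = 3). Dhrs9 and Aldh1a3, at 0.933 and 0.857 TPM in HF, did not differ beyond their SD.

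**Figure D2:**
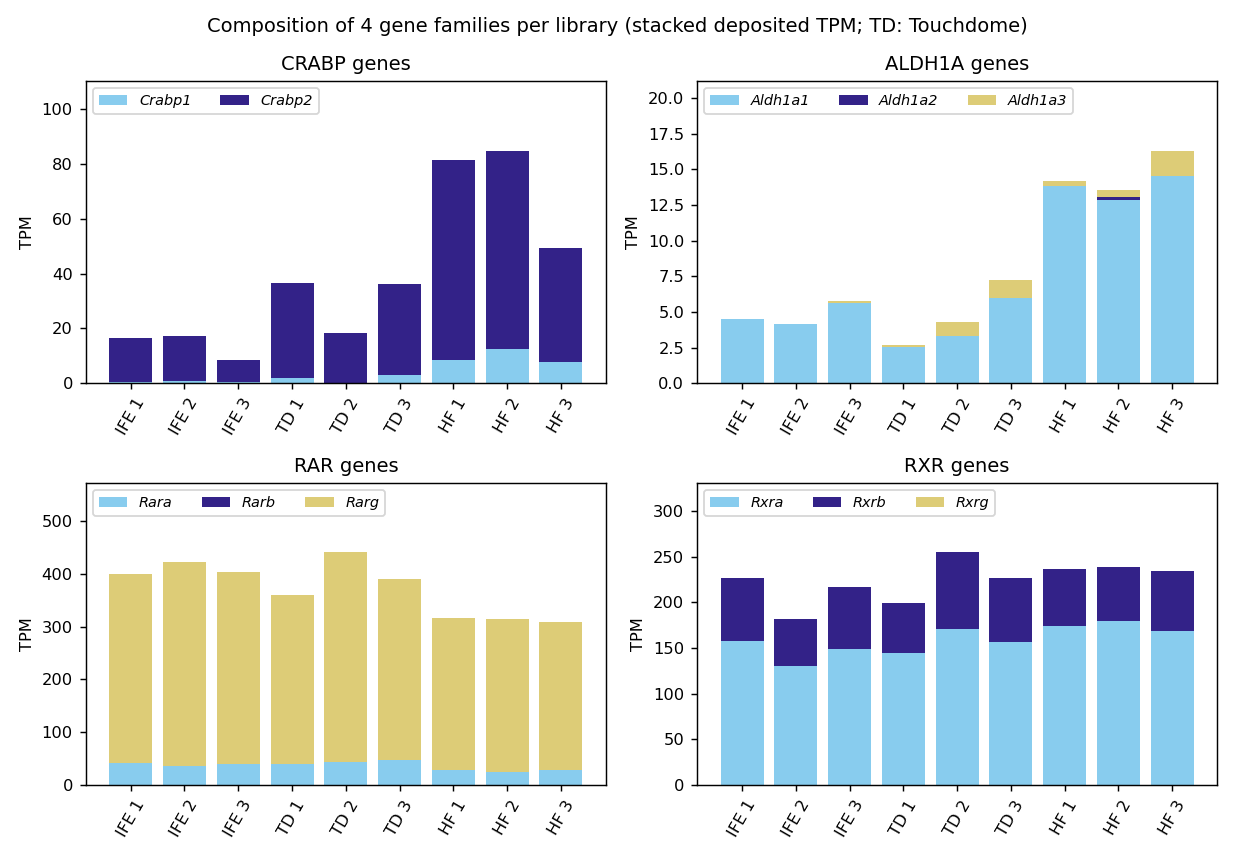
Stacked deposited TPM (vertical axes, linear from 0) of the CRABP, ALDH1A, RAR and RXR genes in each of the 9 libraries (TD is Touchdome). Crabp2, Aldh1a1, Rarg and Rxra form most of each bar, at least 84.2%, 77.2%, 87.8% and 67.2% in the library where their share is lowest, and Rarb is not visible.

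By comparison, the tested members called at an adjusted p under 0.05 were as follows. For HF against IFE, 4 of the 6 tested members were higher (Crabp1, Crabp2, Aldh1a1 and Cyp26b1) and 1 was lower (Rarg), where 33% of the 15046 genes tested were called, 17.1% higher and 16% lower. For Touchdome against HF, 0 were higher and 4 lower (Crabp1, Crabp2, Aldh1a1 and Cyp26b1), where 24.6% of all genes were called, 11.8% higher and 12.8% lower. The 2 comparisons share the HF libraries, and without Touchdome replicate 2, HF replicate 1 or HF replicate 2 the count of 4 became 2, Aldh1a1 and Cyp26b1. For Touchdome against IFE, 0 of 6 were called with edgeR, where 1.3% of all genes were called, 1.22% higher and 0.0798% lower. In any of the 3 comparisons, 5 of the 6 were called, where 35.6% of all genes were. Between Touchdome and IFE, 2 of the 6 had an unadjusted p under 0.05, Crabp2 and Dhrs9, and DESeq2 also called 0. The count with an unadjusted p under 0.05 was 5 with DESeq2, 5 with the replicate block, 6 without Touchdome replicate 2 and 4 without IFE replicate 1, and none of these fits called a member after adjustment. The median log2 fold change of the 6 was 1.63, -1.36 and 0.86 in these comparisons, against 0.00 over all genes tested in each. A gene that passes the filter through 1 high group, as Crabp1 did through HF, is likelier to differ, and the list was chosen with earlier results known. These shares are therefore descriptions.

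Same-numbered Touchdome and IFE libraries deviated somewhat alike from their group means (r = 0.146 to 0.203), and the labels name no batch. With the number as a block over all 9 libraries, the 6 members still had 0 calls between Touchdome and IFE. Calls over all genes between them went from 196 to 349. The adjusted p then lay at 0.179 for Crabp2, 0.265 for Cyp26b1 and 0.271 for Dhrs9 (edgeR). On a scale where IFE is 0 and HF is 1 in mean log2 CPM, Touchdome lay at 0.18 for Crabp1, 0.22 for Cyp26b1, 0.42 for Rarg and 0.47 for Crabp2. It lay at -0.58 for Aldh1a1 and at 1.19 for Dhrs9. Touchdome replicate 2 was the Touchdome library nearest to IFE for Crabp2, Cyp26b1, Rarg and Dhrs9, at 0.16, 0.04, 0.16 and 0.13, whereas replicates 1 and 3 lay at 0.27 to 0.65 for the first 3 of these genes and at 1.67 and 1.79 for Dhrs9. Leaving out replicate 2 of both Touchdome and IFE, a choice made after seeing the data, left 0 members called between them, with Crabp2 at an adjusted p = 0.0798.

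**Figure D3:**
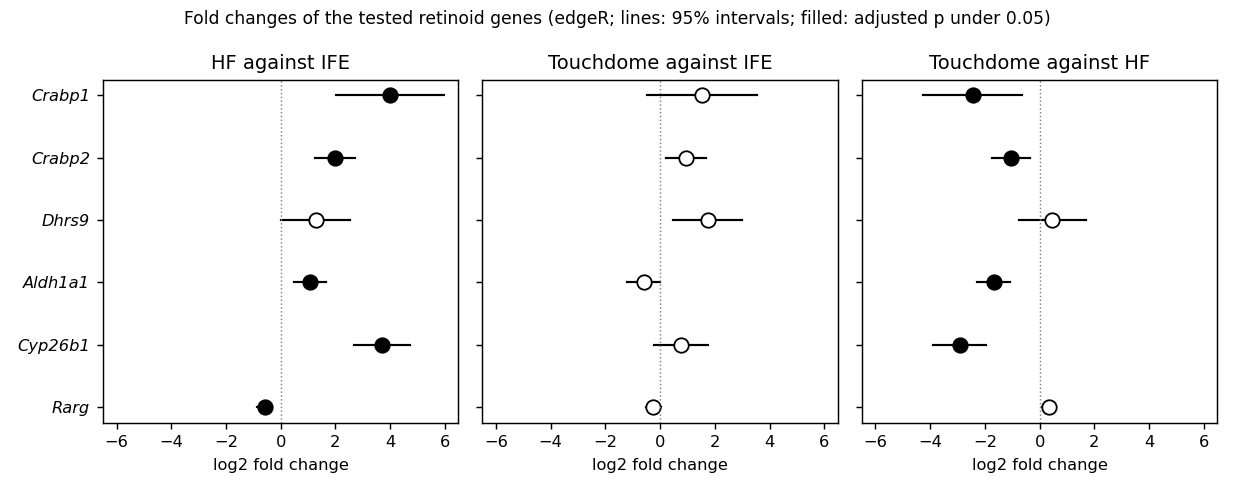
Log2 fold changes (horizontal axes) of the 6 tested members in the 3 comparisons, with points for the edgeR estimate, lines for the 95% interval of each gene, not adjusted for the number of genes, and filled points for an adjusted p under 0.05. The left panel holds 5 filled points, the middle panel none and the right panel 4, all below 0.

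Markers of other cell types differed between the groups as well. Sebaceous markers had 5 of 7 tested genes (8 listed) higher in HF than in IFE, among them Pparg. Their summed level was 1020 to 1950 CPM in HF, 523 to 637 CPM in Touchdome and 423 to 684 CPM in IFE. Most of that sum was Scd1 and Fasn in every group, and Fasn was not called between HF and IFE (adjusted p = 0.378, edgeR). Pparg lay at 6.22 to 25.3 CPM in HF and at most 0.498 CPM in the other groups. Melanocyte markers had 3 of 4 tested (6 listed) higher, at 98.6 to 129 CPM in HF, 16.0 to 50.4 CPM in Touchdome and 9.92 to 14.3 CPM in IFE, though Mlana and Tyr had at most 2 counts in any HF library. Most of the HF sum was Mitf, at 90.2 to 113 CPM, while Dct and Tyrp1 lay at 0.274 to 14.4 CPM and Pmel was not called. Fibroblast markers had 3 of 5 tested (8 listed) higher, at 62.6 to 87.5 CPM in HF, 48.8 to 101 CPM in Touchdome and 1.21 to 3.22 CPM in IFE. Of these, Dcn had 0, 0 and 1 counts and Lum 0 counts in HF, and the HF level was mostly Col1a2. The dermal papilla list had 1 of 2 tested genes (5 listed) higher in HF, Wif1, and 1 lower, Rspo3, at 50.9 to 69.0 CPM in HF against 14.1 to 19.8 CPM in IFE, with Alx4 at 0 in HF replicates 2 and 3. The T cell list had 2 of 4 tested genes lower in HF than in IFE, at 6.11 to 7.68 CPM in HF against 112 to 200.4 CPM in IFE and 120 to 148 CPM in Touchdome, beside the lower Rarg and Rara in HF. Nearly all of that sum was Thy1, at 107 to 198 CPM in IFE and 4.43 to 6.40 CPM in HF, while Cd3e, Cd3g and Trdc each lay at or below 1.97 CPM in IFE and Cd3g was not called. Suprabasal markers had 2 of 7 higher and 3 lower in HF than in IFE, basal markers 0 of 6 higher and 2 lower, and Schwann markers 1 of 3 higher and 1 lower. The 1 tested Merkel cell marker, Krt8, was higher in HF and in Touchdome than in IFE, and the 1 tested endothelial marker was not called. The part of these cell types in the levels of Crabp1, Crabp2, Aldh1a1, Cyp26b1 and Rarg was not tested. The Langerhans and myeloid list had no called gene between HF and IFE. It lay at 41.9 CPM in HF replicate 3 against 264 to 278 CPM in the other HF libraries. In HF replicate 3, Crabp1, Crabp2 and Rarg stood at 2.69, 17.6 and 443 CPM, each its lowest HF value. Aldh1a1 and Cyp26b1 stood there at 14.7 and 117 CPM, each its highest. The part of myeloid cells in these levels was not tested.

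A further list of 62 genes of retinoid uptake, metabolism, receptors and response, of which 46 passed the filter, set the members in their pathway. For HF against IFE, 13 were higher and 3 lower (34.8% of those tested). For Touchdome against HF, 4 were higher and 9 lower (28.3%), and 2 were higher and 5 lower without HF replicate 3. For Touchdome against IFE, 1 was higher and 0 lower (2.17%). The shares called among all genes were 33%, 24.6% and 1.3%, so over both directions the list was near background in the main fit. By direction, 17.1% of all genes were higher and 16% lower in HF against IFE, and 11.8% and 12.8% in Touchdome against HF. Between Touchdome and IFE, 10 of the 46 did not overlap with Touchdome higher and 0 with Touchdome lower. Of all genes tested, 8.32% and 6.27% did so. With the replicate block the count called there became 4 higher and 1 lower, and DESeq2 gave 9 higher and 0 lower. All genes called were 349 and 530 of 15046 in these fits, smaller shares than in the list. The list was chosen with earlier results of these data known, so these shares are descriptions. The count called was 3 without Touchdome replicate 2 and 2 without HF replicate 1. The list's median log2 fold changes were 0.25, -0.28 and -0.03.

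Of the uptake and storage genes, 3 of 7 tested were higher in HF than in IFE (all genes, 17.1%) and 0 lower (16%). Among them were Scarb1, a lipoprotein and carotenoid receptor (2.36 in log2, adjusted p = 0.000765), and Dgat2, an acyltransferase of triglyceride synthesis (1.60, 0.00264, edgeR). Stra6, the membrane receptor that takes up retinol, had another pattern, with 29.4, 34.4 and 70.0 CPM in Touchdome, 14.2, 8.02 and 25.5 CPM in IFE and 16.3, 9.70 and 16.2 CPM in HF. The 3 Touchdome libraries lay above the 6 others. Stra6 was higher in Touchdome than in HF by 1.65 (adjusted p = 0.0384), and against IFE it gave 1.47 (adjusted p = 0.276 in edgeR, but 0.00934 with the replicate block and 0.00696 with DESeq2). Rbp2, a retinol carrier, stood at 6.07, 3.13 and 4.23 CPM in Touchdome, 1.37, 1.41 and 1.40 CPM in IFE and 1.78, 1.58 and 0.590 CPM in HF, and was higher in Touchdome than in HF by 1.76 (adjusted p = 0.0186, edgeR). Dgat1, which had the most TPM of this group over the 9 libraries, was not called. Lrat, which makes retinyl esters, was below the filter, with 7, 0 and 39 counts in Touchdome, 0, 0 and 1 in IFE and 21, 0 and 3 in HF, so that 1 library held most of the counts in each group.

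Of the enzymes between retinol and retinal, 4 of 16 tested were higher in HF than in IFE (all genes, 17.1%) and 1 lower (16%). The retinol dehydrogenase genes Sdr16c6 (2.64, adjusted p = 1.41e-05) and Sdr16c5 (1.41, 0.000229) rose, as did Adh7, an alcohol dehydrogenase that acts on retinol (0.51, 0.00143), while Rdh12, which reduces retinal, was lower (-0.77, 0.000848, edgeR). Against HF, Touchdome was lower in Sdr16c6 (-1.52), Sdr16c5 (-0.66) and Adh7 (-0.50) and higher in Rdh12 (0.72). Sdr16c6 stood at 15.7, 27.5 and 16.3 CPM in HF, 5.56, 7.60 and 7.56 CPM in Touchdome and 2.63, 3.799 and 3.10 CPM in IFE, so the 3 groups did not overlap, and against IFE it passed in Touchdome with the block (adjusted p = 0.0240) but not without it (0.0815, edgeR). Dhrs3, which turns retinal back to retinol and had the most TPM of this group, gave -0.18, 0.13 and -0.05 in HF against IFE, Touchdome against HF and Touchdome against IFE, with no call. Rdh1, which oxidises retinol, was the remaining gene of the 4 (2.38, adjusted p = 0.00803, edgeR) and is named to complete the count, after its values were seen. Cyp2s1, a cytochrome P450 counted with the degrading enzymes, rose in HF over IFE by 1.39 (adjusted p = 9.65e-06) and was lower in Touchdome than in HF by -1.16 (adjusted p = 6.67e-05, edgeR).

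Of the receptors and their partners, 3 of 12 tested were higher in HF than in IFE (all genes, 17.1%) and 1 lower (16%). Rara, which encodes RARα, was the lower one, at 41.2, 37.4 and 41.7 CPM in HF against 66.0, 68.7 and 67.2 CPM in IFE and 59.8, 67.1 and 70.9 CPM in Touchdome (log2 fold change -0.75, adjusted p = 0.000202, edgeR). Rara was likewise higher in Touchdome than in HF by 0.72 (adjusted p = 0.000434), so both expressed RAR genes, Rara and Rarg, were lower in HF than in IFE. Rxra, the main RXR gene with 67.2% to 75.2% of the RXR TPM, did not pass in any comparison (0.05, -0.08 and -0.03). The higher genes in HF were Fabp5, a fatty acid binding protein that can also carry retinoic acid (1.70, adjusted p = 0.000457), Tacc1 (1.27, 7e-05) and the coactivator gene Ncoa1 (0.77, 0.000395, edgeR). Tacc1 and Ncoa1 were also lower in Touchdome than in HF (-1.01 and -0.60).

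Of the genes listed as retinoic acid-responsive, 2 of 10 tested were higher in HF than in IFE (all genes, 17.1%) and 1 lower (16%). Tgm2, a transglutaminase, was the 1 gene of the whole list called between Touchdome and IFE. It stood at 6.39, 1.16 and 4.40 CPM in Touchdome, 0.105, 0.0703 and 0.265 CPM in IFE and 9.37, 14.5 and 15.5 CPM in HF, so the 3 groups did not overlap. Its log2 fold change was 4.57 for Touchdome against IFE (adjusted p = 0.00492), 6.27 for HF against IFE (adjusted p = 1.89e-05) and -1.70 for Touchdome against HF (adjusted p = 0.0240, edgeR). Tgm2 had 2, 1 and 7 counts in IFE. In IFE replicates 1 and 2 it lay below the limit that a count of 0 allows (0.158 and 0.211 CPM). The size of its fold changes over IFE is therefore uncertain. The other called genes were Ret, a receptor tyrosine kinase, higher in HF than in IFE (3.47, adjusted p = 0.00688), Rarres1, lower there (-1.04, 0.0303), and Btg2, an antiproliferative immediate early gene, lower in Touchdome than in HF (-1.39, 0.0437, edgeR). Egr1 had the most TPM of this group and was not called. Of the 5 tested fibroblast markers (8 listed), 2 were called higher in Touchdome than in IFE, Dcn and Col1a2. All 5 lay above IFE without overlap, as did 8.32% of all genes. Lum had 0 counts in every Touchdome library, and Dcn had 0, 0 and 1 counts in HF. Col1a2 had means of 65.2 CPM in HF, 18.5 CPM in Touchdome and 0.297 CPM in IFE. Between HF and IFE, 3 of the 5 tested fibroblast markers were higher in HF, Col1a1, Col1a2 and Pdgfra, and 0 lower. Between Touchdome and IFE, 4 of the 7 bulge and outer root sheath markers were also higher in Touchdome, Cd34, Krt24, Lhx2 and Krt17. That list summed to 1851 to 2382 CPM in Touchdome against 454 to 529 CPM in IFE and 4012 to 4284 CPM in HF. Most of the Touchdome sum was Krt17, at 1526 to 1883 CPM, against 1373 to 1722 CPM in HF. Cd34, Lgr5 and Lhx2 lay at 11.0 to 98.8 CPM in Touchdome, each highest in replicate 3, against 301 to 895 CPM in HF. Of the 7 markers, 5 were called lower in Touchdome than in HF and 0 higher. The part of fibroblasts and of hair follicle cells in the Tgm2 level was not tested. With limma on log2(TPM + 1) the call of Tgm2 between Touchdome and IFE ended (adjusted p = 0.185).

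Some calls of these pathway genes ended when a library was left out. Against HF, the Touchdome calls of Stra6, Dgat2, Sdr16c5 and Btg2 ended without HF replicate 2 or HF replicate 3, and those of Stra6, Sdr16c5 and Btg2 also without HF replicate 1. Without Touchdome replicate 1 the calls of Dgat2, Sdr16c5, Btg2 and Rbp2 ended, without replicate 2 those of Sdr16c5 and Btg2, and without replicate 3 those of Stra6, Dgat2 and Tgm2. Leaving out IFE replicate 1 ended the calls of Stra6 and Btg2, and IFE replicate 3 that of Dgat2. Tgm2 and Rbp2 against HF were also lost without HF replicate 3, and Tgm2 without HF replicate 2. Rarres1, between HF and IFE, was lost without IFE replicates 2 or 3 or HF replicates 1 or 3. The highest adjusted p over the alternatives was 0.119 for Stra6, 0.129 for Dgat2, 0.171 for Sdr16c5, 0.130 for Btg2, 0.0944 for Rbp2, 0.0802 for Tgm2 and 0.114 for Rarres1 in these comparisons. With limma on log2(TPM + 1) the Touchdome calls of Rdh12, Ncoa1 and Tacc1 against HF ended (adjusted p = 0.0506, 0.241 and 0.169).

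**Figure D4:**
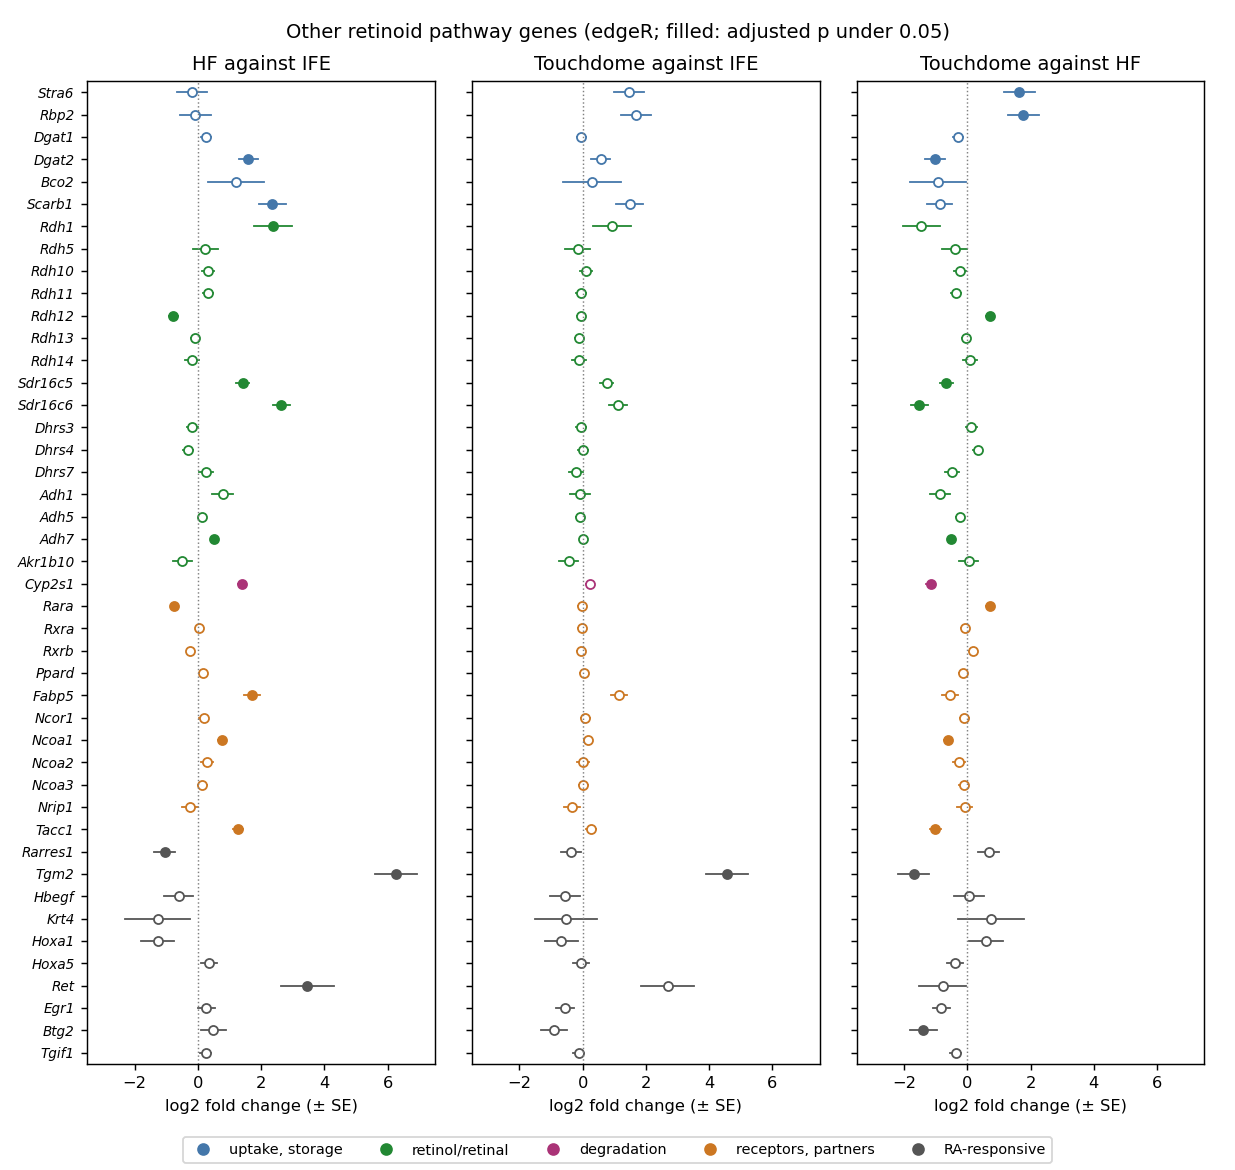
Log2 fold changes ± SE (horizontal axes) of 44 tested pathway genes in the 3 comparisons, coloured by role, with filled points for an adjusted p under 0.05 in edgeR. The left panel has 15 filled points, the middle panel 1 (Tgm2) and the right panel 13.

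The genes whose levels followed the members most closely were ranked by Pearson's r of log2 CPM over the 9 libraries, among 13598 genes with a mean of at least 1 CPM. These values describe 9 libraries in 3 groups that share depth and scaling. Cyp26b1 was most like Lrrfip1 (r = 0.9935) and the urea transporter gene Slc14a1 (r = 0.9934). Crabp1 was most like Hspd1, a mitochondrial chaperonin gene (r = 0.9814), and Hectd2 (r = 0.9775), and Crabp2 most like Gm45643 (r = 0.975) and Smoc1 (r = 0.9593). Aldh1a1 was most like Cd164l2 (r = 0.9824) and Lrpap1 (r = 0.9818). Dhrs9 was most like Inhba, which encodes the activin βA chain (r = 0.9529), and A930037H05Rik (r = 0.9287). Rarg was most like Sytl1 (r = 0.9881) and the neuropeptide Y receptor gene Npy1r (r = 0.9837), which stood at 3.52 CPM in IFE, 1.54 CPM in Touchdome and 0 CPM in HF.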

How the data were processed

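Messenger RNA of 9 libraries (3 each of Touchdome, IFE and HF) was enriched by poly(A) from 50 ng of total RNA, and both ends of each fragment were sequenced over 150 nt, per the labels' protocols. The deposited table holds an expected count, an estimated count per gene not scaled between libraries, and a TPM value made by the authors. The submitters' processing notes name STAR 2.7.9a, RSEM 1.3.3, DESeq2 1.38.2 and build mm39, without roles. The sources used here give neither annotation nor strand setting. Symbols came from GENCODE and matched 52081 identifiers.

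Expected counts were rounded, filtered with filterByExpr (minimum count 10, minimum total 15, leaving 15046 genes), scaled by TMM and tested by quasi-likelihood (robust option) with edgeR 4.0.16 in R 4.3.3, all 9 libraries in 1 fit, with Benjamini-Hochberg adjustment and a threshold of 0.05. The code was tested on simulated data. Alternatives used DESeq2 1.42.0, limma 3.58.1 on log2(TPM + 1), RLE factors, no filter, 2 groups only, a replicate block and each library left out. Deviations from group means correlated at 0.146, 0.173 and 0.203 between same-numbered Touchdome and IFE libraries, and at -0.0257 to 0.0701 for pairs with HF. The titles' numbers thus went with some shared variation in the first 2 groups. The labels name no batch, and the source of that variation was not tested. The block covered all 9 libraries, HF included. The members and lists were chosen with earlier results of these data known. Named genes were the 9 members, up to 4 called genes and the gene with most TPM per pathway list, the 2 genes most like each tested member, the gate genes and the markers. The likeness used a prior count of 2. Some pathway genes are counted in their lists but not reported here by name.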

Additional observations from a re-analysis of the deposited data

How the results depend on the processing

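The 18 log2 fold changes of the 6 tested members kept their direction in all 287 values under the alternatives; 269 stayed on the same side of the threshold, 13 lost a call and 5 gained one. The 13 were Crabp1 (8, the replicate block among them, with adjusted p = 0.0730) and Crabp2 (5) in Touchdome against HF, and the 5 were Rarg in the same comparison (0.0463 with the block). With 1 library left out, members called numbered 2 to 5 in Touchdome against HF, 5 to 6 in HF against IFE and 0 to 0 in Touchdome against IFE. These counts cover all 9 members, with the filter applied anew. The added call in HF against IFE was of a gene outside the 6 tested in the main fit, since Dhrs9 did not pass there under any alternative (lowest adjusted p = 0.0559). Calls over all genes between Touchdome and IFE (196) became 530 with DESeq2, 310 without a filter, 105 with 2 groups only, 349 with the replicate block, 97 with limma on log2(TPM + 1) and 112 to 232 with 1 library left out (112 without IFE replicate 1, 128 without IFE replicate 3). They ranged from 2745 to 4346 between Touchdome and HF and from 4053 to 4992 between HF and IFE. The pathway genes called between Touchdome and IFE (1) became 9 with DESeq2, 4 without a filter, 5 with the replicate block, 2 without replicate 2 of both groups and 1 to 3 with 1 library left out, and those of Touchdome against HF (13) ranged from 7 to 15, and of HF against IFE (16) from 15 to 17. The cause was not tested. The block ended or began no other call of a member. With limma on log2(TPM + 1) the median of all genes shifted by 0.133 for Touchdome against IFE and 0.19 for HF against IFE, and Rarg, at -0.36 for HF against IFE, kept its direction. Depth limits Rarb, Aldh1a2, Aldh1a3 and the Touchdome and IFE levels of Crabp1.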
